A study of Heterocephalus glaber with 2 samples.

Results

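Small nucleolar RNAs (snoRNAs) are short noncoding RNAs that work in the nucleolus. A C/D box snoRNA carries the methyltransferase fibrillarin to a site in ribosomal RNA that it pairs with, and an H/ACA box snoRNA carries the pseudouridine synthase dyskerin. A few of them, among them U3, U8 and SNORA73, take part in cutting the ribosomal RNA precursor instead of marking single bases. Most mammalian snoRNAs are cut from introns of genes for ribosomal proteins and other translation factors, whereas U3 is made from genes of its own. Small Cajal body RNAs share these box motifs and guide modification of spliceosomal RNAs.

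The snoRNA loci described here were those that the tables annotate from RFAM, a catalogue of RNA families, and that carry only names beginning with SNORA, SNORD, SCARNA, sno, sca or ACA, or the names U3, U8 or U13. The rule found 172 of 24514 loci, 90 with C/D box names and 82 with H/ACA box names. It found 0 Cajal body loci and 0 U13 loci. As grouped here by role, 37 loci belong to families taken as acting in precursor cutting (U3, U8, SNORD14, SNORD22 and SNORA73). A further 23 are the imprinted orphans SNORD115 and SNORD116, which have no known ribosomal target. The other 112 were grouped as families of modification guides or of other role. The 172 loci carry 36 different snoRNA names, and 4 of these account for many of the copies: SNORA70 with 41 loci, SNORD116 with 17, SNORA73 with 15 and U3 with 10.

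The tissue was back skin, taken through its full thickness, of naked mole-rats (Heterocephalus glaber), a long-lived rodent, aged 19 years in the old group and 4 years in the young group. Total RNA was sequenced after removal of ribosomal RNA, and the labels name no strain, treatment or allele. Each age has 2 tables, taken here as 2 libraries numbered 1 and 2 and called old 1, old 2, young 1 and young 2. Nothing in the labels shows that libraries 1 and 2 of an age are from separate animals, and p-values then reflect only how far these libraries scatter, possibly for technical reasons. Values are FPKM, a fragment number divided by locus length and by library size, so levels of different loci are compared per length. The depth of the libraries is not given in the sources used here, and no counting error can be attached to a value.

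The library number, rather than the age, separated the libraries in RNA makeup. RFAM loci of all kinds held 51.4% of the summed FPKM in old 1 and 47.0% in young 1, against 0.773% in old 2 and 0.593% in young 2. Mitochondrial protein genes went the other way, with 4.06% in old 1 and 5.77% in young 1, against 29.6% in old 2 and 23.2% in young 2. All comparisons of age are therefore given within each number as well as over the 4 libraries. All 6 skin markers examined were above the floor of the tables in all 4 libraries, with KRT10 between 1285 and 3823 FPKM and DCN between 140.3 and 248.2 FPKM. The cornified layer marker LORICRIN had 1.84 FPKM in old 1 and 2.54 FPKM in young 1, against 321 FPKM in old 2 and 228 FPKM in young 2, and so also went with the number. COL1A1, a collagen gene of fibroblasts, had 196 FPKM in old 1 and 41.4 FPKM in old 2, against 2079 FPKM in young 1 and 4121 FPKM in young 2, and both old libraries were below both young ones. DCN was also lower in both old libraries than in both young ones. It had 197 FPKM in old 1 and 140.3 FPKM in old 2, against 204 FPKM in young 1 and 248.2 FPKM in young 2. KRT5 had 699.5 FPKM in old 1 against 662 FPKM in young 1, and 402 FPKM in old 2 against 1361 FPKM in young 2. The locus joining KRT14 and KRT16 had 235 FPKM in old 1 against 284 FPKM in young 1, and 295 FPKM in old 2 against 744 FPKM in young 2. Of the muscle markers, ACTA1 lay between 871 and 1832 FPKM and CKM between 450 and 629 FPKM, and MYH2 was not found under that name. The leukocyte marker PTPRC lay between 2.20 and 6.43 FPKM. The locus joining PEX11A and the adipocyte marker PLIN1 had 40.6 FPKM in old 1 against 19.6 FPKM in young 1. In number 2 it had 2.51 FPKM in old 2 against 8.80 FPKM in young 2. The red cell marker HBA2 had 25.9 FPKM in old 1 and 150.4 FPKM in old 2, against 257.7 FPKM in young 1 and 749.9 FPKM in young 2, and the part of these tissues in the results was not tested. In bulk skin, fewer cells of a type and less RNA per cell cannot be told apart.

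SnoRNA loci were a small share of each library and were far more abundant in the libraries numbered 1. Their FPKM summed to 2940 in old 1 and 2053 in young 1, which is 0.660% and 0.512% of all FPKM. In number 2 the sum was 169 FPKM in old 2 and 134 FPKM in young 2, or 0.0417% and 0.0314%. The tables give every undetected locus the value 0.0001 FPKM, a floor, and 94 snoRNA loci lay above it in old 1 and 88 in young 1, against 43 in old 2 and 45 in young 2. These counts are 54.7%, 51.2%, 25.0% and 26.2% of the snoRNA loci, whereas 75.2%, 74.2%, 65.8% and 66.8% of all loci lay above the floor in old 1, young 1, old 2 and young 2. Over the 4 libraries, 68 snoRNA loci were never above the floor, 104 were above it at least once, and 28 were above it in all 4.

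Detection went with the kind of locus identifier. Assembled loci are built from reads, so the kind of identifier and detection may not be independent. Of 101 loci with identifiers made by transcript assembly (MSTRG), 12 were never above the floor. Of 71 loci that kept an Ensembl identifier, 56 were never above it, and none reached 1 FPKM in any library. The imprinted orphan families lay mostly at the floor: 13 of their 23 loci were at the floor in every library, all 23 were at the floor in both libraries numbered 2, and 1 of them reached 1 FPKM. That locus, SNORD116 (MSTRG.42324), had 2.41 FPKM in old 1 and 2.71 FPKM in young 1.

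Few loci carried most of the snoRNA signal. The 10 highest loci of each library held 93.6% of its snoRNA FPKM in old 1 and 89.9% in young 1, and 73.2% in old 2 and 80.2% in young 2. The highest locus was a U3 locus in all 4 libraries, with 1830 FPKM in old 1, 681 FPKM in young 1, 25.1 FPKM in old 2 and 33.2 FPKM in young 2. It was not the same U3 locus at both ages.

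**Figure D1:**
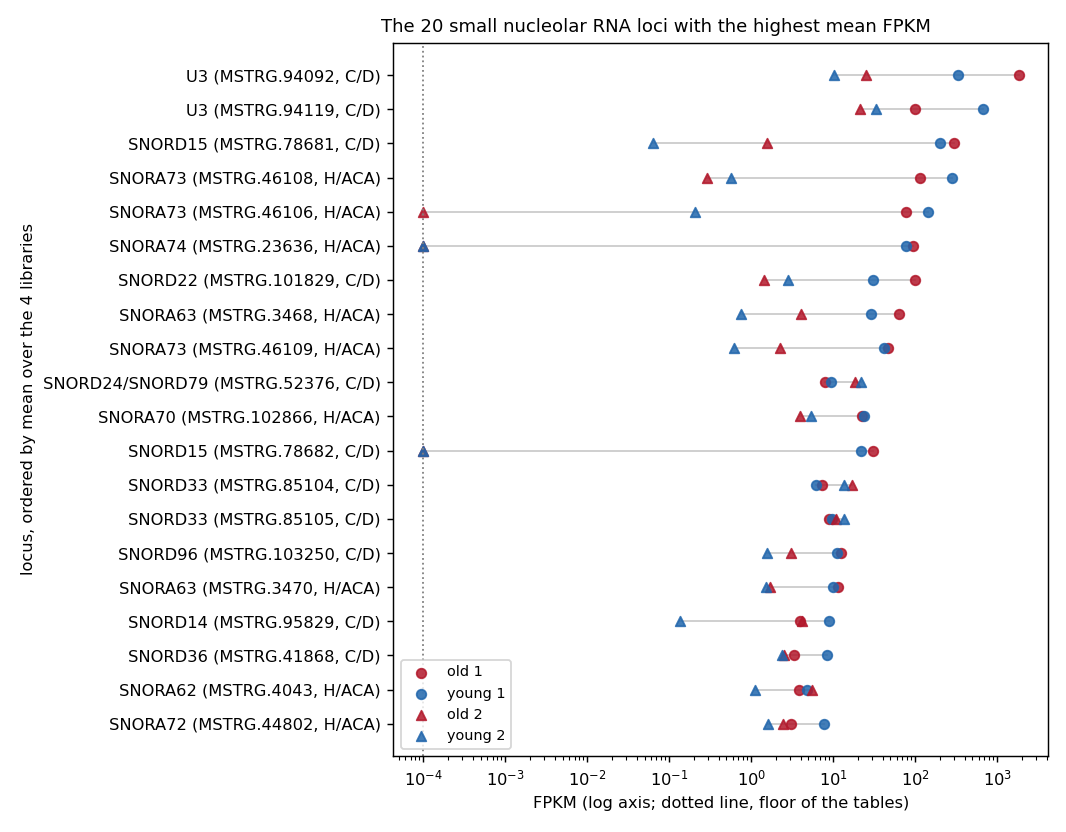
FPKM (horizontal log axis) of the 20 snoRNA loci with the highest mean over 4 libraries, one locus per row with its identifier and class; circles are the libraries numbered 1 and triangles those numbered 2, red for old and blue for young, and the dotted line marks the floor of 0.0001 FPKM. For most of the highest loci both circles lie far right of both triangles, while SNORD24/SNORD79 (MSTRG.52376) and SNORD33 (MSTRG.85104) lie the other way.

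Among loci of the precursor-cutting families, the 2 highest U3 loci had opposite directions with age. U3, a C/D box RNA, pairs with the ribosomal RNA precursor in the small-subunit processome. The locus MSTRG.94092 had 1830 FPKM in old 1 against 334 FPKM in young 1, and 25.1 FPKM in old 2 against 10.2 FPKM in young 2. It was higher in the old library of each number, by 5.48-fold in number 1 and 2.47-fold in number 2, and the ages overlapped because young 1 was above old 2. The locus MSTRG.94119 had 98.5 FPKM in old 1 against 681 FPKM in young 1, and 21.1 FPKM in old 2 against 33.2 FPKM in young 2. It was lower in the old library of each number, the young value being 6.91 times the old one in number 1 and 1.57 times in number 2.

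The division of U3 signal between these loci therefore differed with age in both numbers. MSTRG.94092 held 94.9% of their summed FPKM in old 1 against 32.9% in young 1, and 54.3% in old 2 against 23.4% in young 2, so that both old libraries were above both young ones. The share was computed after the values of both loci had been seen, and no test is attached to it. Summed over both loci, U3 had 1929 FPKM in old 1 against 1015 FPKM in young 1, and 46.2 FPKM in old 2 against 43.4 FPKM in young 2. The ratio of old to young was 1.90 in number 1 and 1.07 in number 2. U3 genes have near-identical copies in mammals, the tables hold no sequence or coordinate, and how reads that match several copies were assigned is not given in the sources used here, so the split between the loci is uncertain. Of the other 8 U3 loci, 3 were above the floor in any library, and the higher of them had 2.37 FPKM in old 1 (MSTRG.64680).

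**Figure D2:**
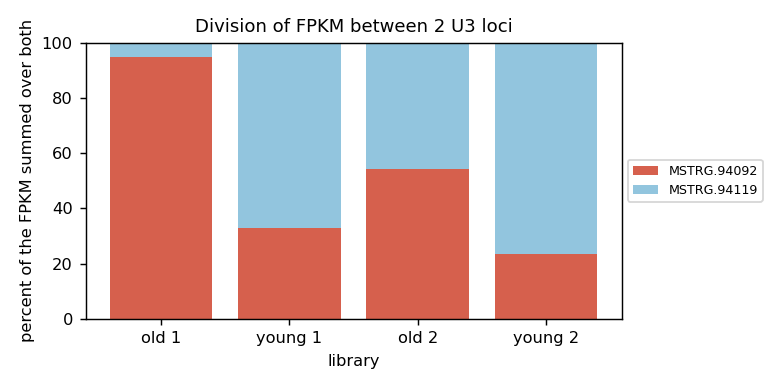
Percent of the FPKM summed over the 2 highest U3 loci that fell in MSTRG.94092 (red, lower part) and MSTRG.94119 (blue, upper part), one bar per library, with no error bars because each bar is 1 library. The red part is 94.9% in old 1 and 32.9% in young 1, then 54.3% in old 2 and 23.4% in young 2.

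The H/ACA box RNA SNORA73, which takes part in making small-subunit ribosomal RNA, had 3 abundant loci with neighbouring assembled identifiers, and they did not share a direction. MSTRG.46108 had 114 FPKM in old 1 against 282 FPKM in young 1, and 0.291 FPKM in old 2 against 0.567 FPKM in young 2. MSTRG.46106 had 78.4 FPKM in old 1 against 143.8 FPKM in young 1, and was at the floor in old 2 against 0.207 FPKM in young 2. MSTRG.46109 had 46.0 FPKM in old 1 against 42.0 FPKM in young 1, and 2.28 FPKM in old 2 against 0.610 FPKM in young 2. The first and second were lower in the old library of each number, whereas the third was higher in the old library of each. Their sum was 238 FPKM in old 1 against 468 FPKM in young 1, and 2.57 FPKM in old 2 against 1.38 FPKM in young 2, so the ratio of old to young was 0.509 in number 1 and 1.85 in number 2. Reads of these copies may be shared in ways the tables do not show.

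SNORD22, needed for small-subunit ribosomal RNA processing in frog oocytes, went in opposite directions in the numbers. Its highest locus (MSTRG.101829) had 98.4 FPKM in old 1 against 30.4 FPKM in young 1, and 1.43 FPKM in old 2 against 2.83 FPKM in young 2. The old library was 3.23-fold higher in number 1, and in number 2 the young value was 1.98 times the old one. SNORD14 acts in precursor cutting and also guides methylation, and 5 of its 6 loci were above the floor in at least 1 library. One of them, MSTRG.33694, had 3.16 FPKM in old 1 and 2.51 FPKM in old 2, against 1.99 FPKM in young 1 and 1.30 FPKM in young 2. Both old libraries of this low locus were above both young ones. U8, which acts in large-subunit ribosomal RNA processing, was near or at the floor except in a single library: its highest locus (MSTRG.52769) had 0.164 FPKM in old 1 and 3.54 FPKM in old 2, and was at the floor in both young libraries.

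Among the guide RNAs, 2 SNORD15 loci and the highest SNORA74 locus were abundant in number 1, with age ratios there below 1.5-fold, and had at most 1.54 FPKM in number 2. SNORD15 (MSTRG.78681), a guide for methylation of large-subunit ribosomal RNA, had 298 FPKM in old 1 against 201 FPKM in young 1, and 1.54 FPKM in old 2 against 0.0630 FPKM in young 2. A second SNORD15 locus (MSTRG.78682) had 30.3 FPKM in old 1 against 21.7 FPKM in young 1 and was at the floor in both libraries of number 2. SNORA74 (MSTRG.23636), a pseudouridylation guide, had 93.4 FPKM in old 1 against 78.4 FPKM in young 1 and was also at the floor in both libraries of number 2. The old library was 1.49-fold, 1.40-fold and 1.19-fold higher in number 1 for these loci, while their values across the numbers differed by far more.

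SNORA63, an H/ACA box RNA, was higher in the old library of both numbers. Its highest locus (MSTRG.3468) had 64.2 FPKM in old 1 against 29.3 FPKM in young 1, and 4.04 FPKM in old 2 against 0.756 FPKM in young 2. The old value was 2.19 times the young one in number 1 and 5.35 times in number 2, and young 1 was above old 2. A second SNORA63 locus (MSTRG.3470) had 11.4 FPKM in old 1 against 9.82 FPKM in young 1, and 1.72 FPKM in old 2 against 1.497 FPKM in young 2, a difference with the same sign but of 1.16-fold and 1.15-fold. SNORA70 (MSTRG.102866), the highest of the 41 loci of that name, had 22.7 FPKM in old 1 against 23.7 FPKM in young 1, and 3.94 FPKM in old 2 against 5.32 FPKM in young 2. SNORD96 (MSTRG.103250) had 12.6 FPKM in old 1 against 11.2 FPKM in young 1, and 3.09 FPKM in old 2 against 1.55 FPKM in young 2.

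A smaller set of C/D box guides was measured at like levels in all 4 libraries or was higher in number 2. The locus that carries both the names SNORD24 and SNORD79 (MSTRG.52376) had 7.92 FPKM in old 1 against 9.35 FPKM in young 1, and 18.5 FPKM in old 2 against 21.8 FPKM in young 2. This locus also joins several Ensembl identifiers without a gene name, so its value cannot be assigned to any single RNA. SNORD33, a methylation guide, had a locus (MSTRG.85104) with 7.34 FPKM in old 1 against 6.09 FPKM in young 1, and 17.1 FPKM in old 2 against 13.6 FPKM in young 2. Its other locus (MSTRG.85105) had 8.80 FPKM in old 1 against 9.67 FPKM in young 1, and 10.7 FPKM in old 2 against 13.5 FPKM in young 2. At all 3 loci the ratio of old to young stayed between 0.792 and 1.26 in both numbers, close to no difference. SNORD34 (MSTRG.85103), also higher in number 2, had 0.850 FPKM in old 1 against 1.22 FPKM in young 1. In number 2 it had 3.28 FPKM in old 2 against 2.09 FPKM in young 2. Its ratio of old to young was 0.697 in number 1 and 1.57 in number 2.

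Other loci with at least 1 FPKM in every library had no shared direction. SNORD36 (MSTRG.41868) had 3.31 FPKM in old 1 against 8.49 FPKM in young 1, and 2.51 FPKM in old 2 against 2.36 FPKM in young 2. SNORA72 (MSTRG.44802) had 3.06 FPKM in old 1 against 7.79 FPKM in young 1, and 2.43 FPKM in old 2 against 1.59 FPKM in young 2. SNORA62 (MSTRG.4043) had 3.85 FPKM in old 1 against 4.86 FPKM in young 1, and 5.52 FPKM in old 2 against 1.10 FPKM in young 2. All 3 were lower in old 1 than in young 1 and higher in old 2 than in young 2. In all, 13 snoRNA loci had at least 1 FPKM in every library.

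Among the loci highest in old 2 were SNORD39 and a second SNORA70 locus. SNORD39 (MSTRG.12535) had 10.8 FPKM in old 2 against 1.30 FPKM in young 2 and was at the floor in both libraries of number 1. The SNORA70 locus (MSTRG.7652) had 6.82 FPKM in old 2 against the floor in young 2, while number 1 had 1.79 FPKM in old 1 against 3.03 FPKM in young 1. Each of these old 2 values is that of 1 library.

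By class within number 1, the C/D box total was higher in the old library and the H/ACA box total lower. The 90 C/D box loci summed to 2465 FPKM in old 1 against 1392 FPKM in young 1, a ratio of 1.77, and the 82 H/ACA box loci to 474 FPKM in old 1 against 662 FPKM in young 1, a ratio of 0.717. The C/D box ratio turned with a single locus: without U3 MSTRG.94092 it was 0.600, and without both of the highest U3 loci it was 1.42. The H/ACA box ratio was 0.950 without its highest locus, SNORA73 MSTRG.46108. In number 2 both classes were higher in the old library, with 137 FPKM in old 2 against 118 FPKM in young 2 for C/D box loci and 32.6 FPKM against 15.4 FPKM for H/ACA box loci, ratios of 1.15 and 2.12. U3 MSTRG.94092 and SNORA73 MSTRG.46108, the highest of each class by mean over the 4 libraries, were also left out in number 2. There the C/D box ratio was then 1.03 and the H/ACA box ratio 2.18. SNORA73 MSTRG.46108 had 0.291 FPKM in old 2 and 0.567 FPKM in young 2, so leaving it out could change little there. For H/ACA box loci the direction of the age difference was thus opposite in the numbers. Each sum within a number compares 1 library per age and is given without a test.

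**Figure D3:**
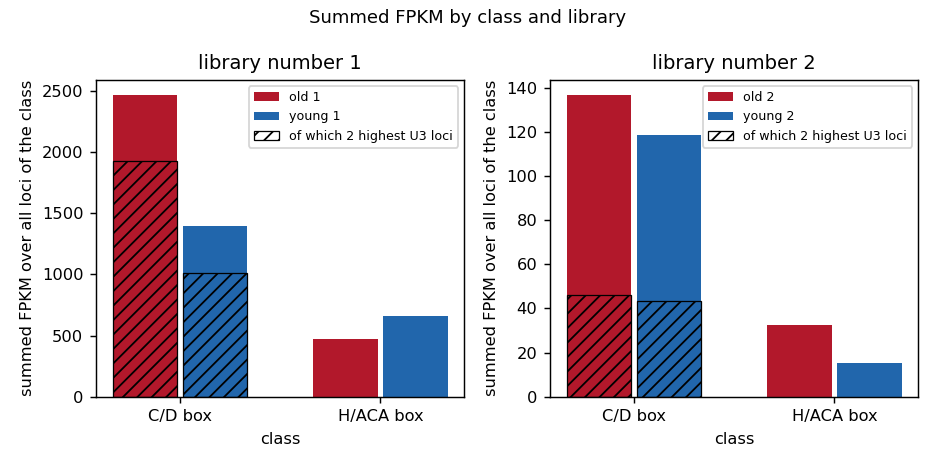
Summed FPKM of all C/D box and all H/ACA box loci in each library, number 1 on the left and number 2 on the right with its own vertical scale; red bars are old and blue bars young, and hatching marks the part held by the 2 highest U3 loci. In number 1 the C/D box sum is 2465 in old against 1392 in young and the H/ACA box sum 474 against 662, while in number 2 both old bars are the taller.

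Counts of loci gave a different picture from the sums. In number 1, 62 snoRNA loci averaged 1 FPKM or more, and on the log2(FPKM + 1) scale, which understates the change of low loci, 6 of them were at least 2-fold higher in old 1 and 10 at least 2-fold lower. Over all 13290 loci at that level, 2.44% were 2-fold higher and 2.16% 2-fold lower. Of the C/D box loci 5 were higher and 6 lower, and of the H/ACA box loci 1 was higher and 4 lower. The median log2 difference was 0.10 over the snoRNA loci, 0.11 for C/D box and -0.06 for H/ACA box loci, against 0.06 over all loci. By role as grouped here, 4 of 15 loci of the precursor-cutting families were 2-fold higher and 4 were 2-fold lower. Of 46 loci in families of modification guides or of other role 2 were higher and 6 lower.

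In number 2, 25 snoRNA loci had a mean of at least 1 FPKM, of which 11 were 2-fold higher in old 2 and 1 was 2-fold lower. Over all 11531 loci with that mean, 4.99% were 2-fold higher and 5.91% 2-fold lower. The 11 were 6 C/D box and 5 H/ACA box loci, and included U3 MSTRG.94092, SNORA63 MSTRG.3468, SNORA73 MSTRG.46109, SNORA62 MSTRG.4043, U8, SNORD39 and SNORA70 MSTRG.7652. The locus that was 2-fold lower was SNORD42 (MSTRG.62948), with 0.427 FPKM in old 2 against 2.42 FPKM in young 2 and 3.395 FPKM in old 1 against 2.66 FPKM in young 1. The median log2 difference was 0.68 over the snoRNA loci, 0.61 for C/D box and 1.27 for H/ACA box loci, against -0.05 over all loci. These counts compare single libraries, most of the loci lay below 10 FPKM, and 5 of the 25 had a mean of at least 10 FPKM. With a mean of at least 5 FPKM the counts were 2 higher and 0 lower.

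Other RFAM classes were also higher in old 2 than in young 2. The ratio of old to young summed FPKM in number 2 was 3.29 for spliceosomal RNA, 4.82 for signal recognition particle RNA, 3.77 for 7SK RNA and 8.91 for RNase P RNA, beside 1.27 for all snoRNA loci. In number 1 the same ratios were 0.781, 1.31, 1.06 and 1.63, beside 1.43 for snoRNA loci. The part of this shift in the snoRNA values of number 2 was not tested.

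Agreement between the numbers was close to that of the table as a whole. Of the 45 snoRNA loci that averaged 1 FPKM or more over the 4 libraries, 11 were higher in the old library of both numbers and 10 lower in both, where the figures for all 12753 such loci were 26.7% and 23.1%. Both old libraries lay above both young ones at 2 of the 45 loci, against 7.3% of all loci, and below them at 1 locus, against 6.46%. The 2 were SNORD14 MSTRG.33694 and a SNORD16 locus (MSTRG.8021) with 0.247 FPKM in old 1 and 4.08 FPKM in old 2, against the floor in both young libraries. The other was a SNORD18 locus (MSTRG.59632) with 1.13 FPKM in old 1 and the floor in old 2, against 1.25 FPKM in young 1 and 1.81 FPKM in young 2.

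**Figure D4:**
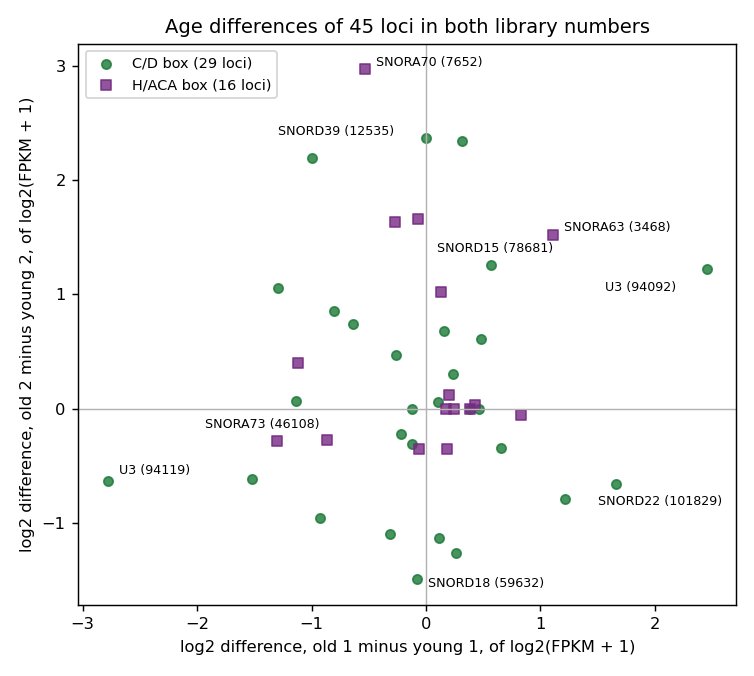
Difference of log2(FPKM + 1), old 1 minus young 1 (horizontal) against old 2 minus young 2 (vertical), for the 45 snoRNA loci that averaged 1 FPKM or more; green circles are 29 C/D box loci, purple squares are 16 H/ACA box loci, and grey lines mark no difference. Loci are spread over all 4 quadrants, with 11 higher and 10 lower in the old library of both numbers, and the U3 loci MSTRG.94092 and MSTRG.94119 lie at opposite corners.

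In the fit across all loci, limma on log2(FPKM + 1) with age as the single term, 0 of 12753 loci passed a Benjamini-Hochberg adjusted p of 0.05 in either direction (0% higher, 0% lower), and 25 higher and 53 lower loci had an unadjusted p under 0.05. None of the 45 snoRNA loci passed, and none had an unadjusted p under 0.05, the lowest limma p being 0.164 for SNORD16 MSTRG.8021. The estimated differences and their standard errors were 1.84 ± 2.45 for U3 MSTRG.94092, -1.70 ± 1.57 for U3 MSTRG.94119, 0.91 ± 3.12 for SNORD15 MSTRG.78681 and 1.31 ± 1.73 for SNORA63 MSTRG.3468, in log2 units. In this fit the spread within an age includes the difference between the numbers. With 2 libraries per age, an exact permutation test of a single value cannot give a p below 0.33. Leaving out 1 library made calls at 3 loci: without young 1, limma called SNORD15 MSTRG.78681 higher in old (log2 difference 4.70, adjusted p = 0.000623), and without old 1 it called SNORA73 MSTRG.46108 (log2 difference -4.03, adjusted p = 0.00428) and MSTRG.46106 (log2 difference -3.72, adjusted p = 0.0093) lower. In each of these fits 1 age keeps a single library, of number 2, set against a pair that holds both numbers.

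The difference between the numbers was larger than that between the ages for most loci. Both libraries of number 1 were at least 2-fold above both of number 2 at 26 of the 45 loci, or 57.8%, against 21.3% of all loci. The reverse held at 1 locus, SNORD24/SNORD79 being short of it and SNORD39 meeting it, against 8.28% of all loci. By class the 26 were 15 of 29 C/D box loci and 11 of 16 H/ACA box loci. The spliceosomal RNA loci behaved alike, with 53 of 76.

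Genes taken as the hosts of these snoRNAs in human were compared next, since an intronic snoRNA and its host are cut from the same transcript. For 36 snoRNA loci a gene taken as the human host lay within 10 assembled identifiers, which gave 16 host genes. The tables hold no coordinates, so that the loci lie inside these genes here was not shown. Of 28 pairs whose snoRNA had a mean of at least 1 FPKM, the snoRNA was higher in number 1 in 24 and the host was higher in number 2 in 21. FPKM depend on the rest of the library, and RFAM loci held 51.4% and 47.0% of the sum in old 1 and young 1. They held 0.773% and 0.593% in old 2 and young 2. The part of this in the counts of pairs was not tested, and no other scaling was applied to them. SNORD15 MSTRG.78681 stands beside RPS3, which encodes a small-subunit ribosomal protein and had 442 FPKM in old 1 against 321 FPKM in young 1, and 609 FPKM in old 2 against 915 FPKM in young 2. The host was thus not low in number 2, where the snoRNA had 1.54 FPKM or less.

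RCC1, a chromatin-bound exchange factor, was taken as the host of the 3 SNORA73 loci beside it. RCC1 had 4.39 FPKM in old 1 against 1.98 FPKM in young 1. In number 2 it was likewise not low, with 6.198 FPKM in old 2 against 5.87 FPKM in young 2. SNHG3, which is also among the host genes listed below, was not found under that name and was not measured. Other hosts were on the same side as the snoRNA, among them those of SNORA74, SNORD33 and SNORA63. MATR3, beside SNORA74 MSTRG.23636, had 29.4 FPKM in old 1 against 24.5 FPKM in young 1, and 10.8 FPKM in old 2 against 15.9 FPKM in young 2. RPL13A, beside both SNORD33 loci, which were higher in number 2, had 206 FPKM in old 1 against 190 FPKM in young 1, and 569 FPKM in old 2 against 833 FPKM in young 2. EIF4A2, a translation factor beside SNORA63, had 62.9 FPKM in old 1 against 37.1 FPKM in young 1, and 47.0 FPKM in old 2 against 35.03 FPKM in young 2. EIF4A2 and SNORA63 MSTRG.3468 were both higher in the old library of each number. Over the 28 pairs the snoRNA and host differences had the same sign in 15 pairs in number 1 and in 12 pairs in number 2. A snoRNA at the floor in both libraries of number 2 has no sign there and could not match its host. SNORA74 MSTRG.23636 and SNORD15 MSTRG.78682 were among such loci, so 12 of 28 is not a share of pairs that could match. Several snoRNA loci share a host, so the 28 pairs are not independent.

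**Figure D5:**
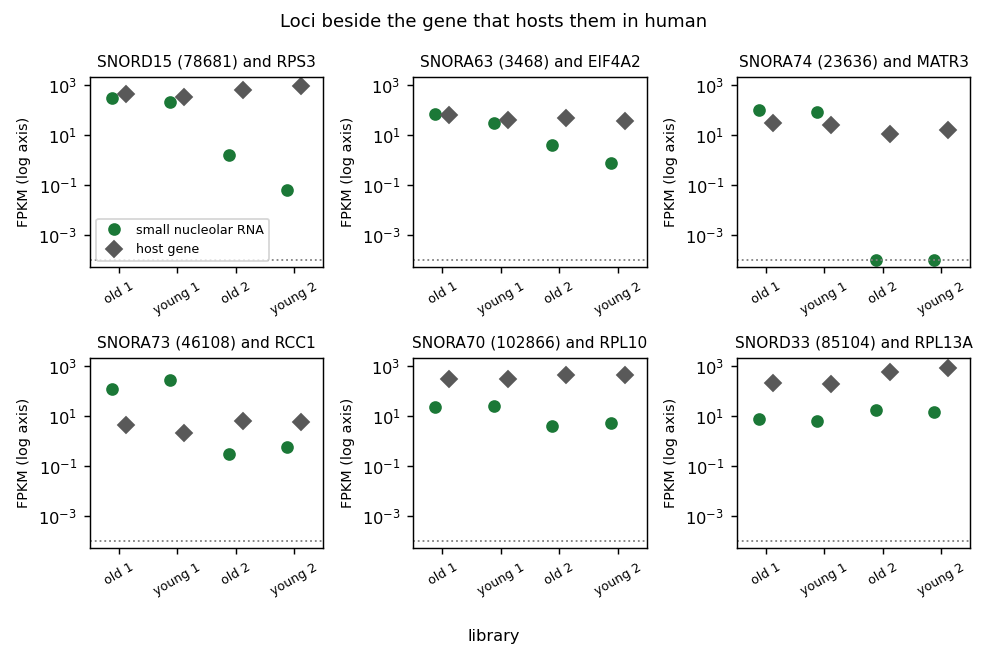
FPKM (log axis) in each library of 6 snoRNA loci (green circles) and of the neighbouring gene taken as their host in human (grey diamonds). The dotted line is the floor of 0.0001 FPKM. SNORD15, SNORA63, SNORA74, SNORA73 and SNORA70 are lower in both libraries numbered 2 while their hosts stay within a narrower range, and SNORD33 is higher there along with RPL13A.

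The wider list of host genes had opposite directions in the numbers. Of 42 genes listed, 32 were found and tested. Those not found were GAS5, all of the listed SNHG genes, NCL, RPL30 and PPAN, so the medians do not cover them. In number 1, 29 of them were higher and 3 lower in old 1, with a median log2 difference of 0.31. In number 2, 6 were higher and 26 lower in old 2, with a median of -0.34, and 0 of the 32 passed in the limma fit. Both medians kept their sign under the other scalings, the count of higher genes being 25 in number 1 under each, and 7 or 12 in number 2. The 3 with the highest mean were TPT1, RPL23A and RPS12. TPT1, the translationally controlled tumour protein, had 1060 FPKM in old 1 against 620 FPKM in young 1, and 2277 FPKM in old 2 against 2916 FPKM in young 2. RPL23A had 752 FPKM in old 1 against 394 FPKM in young 1, and 2392 FPKM in old 2 against 3042 FPKM in young 2. RPS12 had 515 FPKM in old 1 against 377 FPKM in young 1, and 1816 FPKM in old 2 against 2608 FPKM in young 2. In number 2 the host genes that were found and the snoRNA loci thus had medians of opposite sign, -0.34 and 0.68. The 0.68 rests on 25 loci, most of them below 10 FPKM, and the listed genes were not matched to these loci. With a minimum mean of 5 FPKM the C/D box median was 0.04 and no H/ACA box locus remained. Without a filter both class medians were 0.00.

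The proteins of the C/D box particle had the same directions as most host genes that were tested. All 4 were higher in old 1 and lower in old 2, with medians of 0.24 and -0.50, except that 1 of the 4 turned lower in old 1 under both other scalings. FBL, the methyltransferase, had 24.3 FPKM in old 1 against 16.7 FPKM in young 1, and 44.0 FPKM in old 2 against 72.3 FPKM in young 2. SNU13, which binds the kink-turn of the RNA first, had 58.8 FPKM in old 1 against 49.4 FPKM in young 1, and 73.6 FPKM in old 2 against 99.0 FPKM in young 2. NOP56, a scaffold of the particle, had 19.8 FPKM in old 1 against 19.2 FPKM in young 1, and 20.6 FPKM in old 2 against 23.7 FPKM in young 2.

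The proteins of the H/ACA box particle had no clear direction, with medians of 0.02 in number 1 and -0.13 in number 2, both of which change sign when RFAM and mitochondrial loci are left out of the scaling (-0.03 and 0.05), the first also under median-of-ratios scaling (-0.04). DKC1, the pseudouridine synthase, had 4.86 FPKM in old 1 against 4.46 FPKM in young 1, and 9.41 FPKM in old 2 against 11.04 FPKM in young 2. NHP2 had 4.40 FPKM in old 1 against 4.62 FPKM in young 1, and 15.2 FPKM in old 2 against 32.4 FPKM in young 2. NOP10 had 35.7 FPKM in old 1 against 27.7 FPKM in young 1, and 174 FPKM in old 2 against 181 FPKM in young 2. All 3 were lower in old 2 than in young 2, NHP2 by the most. None of the 8 particle proteins passed in the limma fit.

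Factors that assemble, carry or trim snoRNAs had small median differences. The 9 assembly factors had medians of 0.10 in number 1 and -0.12 in number 2, and the median in number 2 was 0.00 when RFAM and mitochondrial loci are left out of the scaling. RUVBL1, an ATPase of the assembly complex, had 11.2 FPKM in old 1 against 5.91 FPKM in young 1, and 8.40 FPKM in old 2 against 9.21 FPKM in young 2. RUVBL2, its partner, had 6.63 FPKM in old 1 against 6.82 FPKM in young 1, and 14.7 FPKM in old 2 against 11.3 FPKM in young 2. PIH1D1, which belongs to the same complex, had 9.62 FPKM in old 1 against 8.91 FPKM in young 1, and 13.8 FPKM in old 2 against 18.1 FPKM in young 2. No direction was shared between the numbers for any of these.

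Of 10 Cajal body, cap and transport factors 9 were found, with medians of 0.25 in number 1 and -0.18 in number 2, and 0.00 in number 2 when RFAM and mitochondrial loci are left out of the scaling. XPO1, the nuclear export receptor that also carries U3 to the nucleolus, had 26.6 FPKM in old 1 against 25.0 FPKM in young 1, and 7.44 FPKM in old 2 against 9.68 FPKM in young 2. NOLC1, a nucleolar and Cajal body phosphoprotein, had 11.9 FPKM in old 1 against 8.65 FPKM in young 1, and 18.4 FPKM in old 2 against 15.3 FPKM in young 2. LARP7 had 7.93 FPKM in old 1 against 3.35 FPKM in young 1, and 11.1 FPKM in old 2 against 12.7 FPKM in young 2. Of the factors found, NOLC1, WRAP53 and TGS1 were higher in the old library of both numbers. COIL was lower in both, and the rest differed in direction between the numbers.

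The 5 trimming and turnover factors had medians of 0.04 in number 1, which is -0.03 under median-of-ratios scaling and -0.02 without RFAM and mitochondrial loci, and -0.16 in number 2. MTREX, the helicase that feeds RNA to the nuclear exosome, had 16.9 FPKM in old 1 against 14.8 FPKM in young 1, and 5.43 FPKM in old 2 against 7.29 FPKM in young 2. DIS3, an exosome nuclease, had 9.34 FPKM in old 1 against 9.05 FPKM in young 1, and 2.80 FPKM in old 2 against 2.69 FPKM in young 2. EXOSC10, the nuclear exosome nuclease that trims snoRNA ends, had 6.71 FPKM in old 1 and 9.05 FPKM in old 2, against 5.56 FPKM in young 1 and 6.45 FPKM in young 2. Its old library was higher in each number and both old values lay above both young ones, with a limma p of 0.515 before adjustment. Over all these lists, 62 genes were tested and 0 passed, 0 of them at an unadjusted p under 0.05. Both old values lay above both young ones at 3 of the 62, against 7.3% of all loci. They lay below both young ones at 1, the Cajal body factor COIL, against 6.46% of all loci.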

How the data were processed

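The authors deposited FPKM values per locus in 4 tables of skin RNA, 2 per age. Bowtie2, TopHat2, cutadapt and FastQC are listed, with no versions or roles, in the submitters' processing notes. Which build, gene models and quantifier lie behind the FPKM is not given in the sources used here. RNA integrity numbers were above 7.5 and paired reads of 150 bases were made, per the labels' protocols. A value of 0.0001 FPKM was read as a floor.

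The age comparison took log2(FPKM + 1) into limma 3.58.1 (R 4.3.3), with a mean-variance trend and a minimum mean of 1 FPKM. Tests were two-sided, with Benjamini-Hochberg adjustment over all 12753 loci. Simulated data were also fitted, with a pass mark set only for the fit that had the library number as a further term. No pass mark was set for the fit with age alone. Within a number, with 1 library per age, differences are described without a test. Sums cover every locus of a class. Python 3.11.15 and pandas 2.3.3 joined the tables. Gene symbols came from the tables and, by gene number, from a RefSeq table of the assembly H.glaber_assembly_v1.0.

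The members, gene lists and other settings were chosen with earlier results of these data known. Loci were named by rule: in each class the 5 with the highest mean, and the 5 highest and 5 lowest differences in number 1 among loci that averaged 10 FPKM or more; the highest U3 and U8 locus; loci with at least 1 FPKM in every library; the 10 highest in number 2; and the 3 highest genes of each list. SNORD116 MSTRG.42324, U3 MSTRG.64680, SNORD42, SNORD16 MSTRG.8021, SNORD18 MSTRG.59632, SCARNA2, COIL, the named host genes outside the 3 highest and the tissue markers are outside this rule and were picked with their values in view. WRAP53 and TGS1 are also outside the rule and were picked in the same way. Sequences are not printed.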

Additional observations from a re-analysis of the deposited data

How the results depend on the processing

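Depth is unknown and each age has 2 libraries, so small differences could not be separated from error. Among snoRNA loci, 0 passed under every limma setting with all 4 libraries, including other pseudocounts, filters, scalings and moderation. Scaling without RFAM and mitochondrial loci shifted the median of all loci in number 2 by 0.16 (log2), and median-of-ratios scaling by 0.08.

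With the library number as a replicate block, 3 loci passed over the whole table and 0 among snoRNA loci and gene lists, the lowest adjusted limma p of a snoRNA locus being 0.313. Under this block 4 snoRNA loci were higher and 4 lower at an unadjusted p under 0.05, against 0 without it. The numbers are not stated to pair the libraries: the deviations of old 1 and young 1 from their age means correlated at 0.823 over 12753 loci. Leaving out 1 library gave 0 to 37 calls over all loci (31 without young 1, 1 without young 2, 37 without old 1) and 0 to 2 among snoRNA loci.

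The leave-one-out log2 differences ranged from -1.23 to 4.90 for U3 MSTRG.94092, from -3.86 to 0.46 for U3 MSTRG.94119, from -2.87 to 4.70 for SNORD15 MSTRG.78681, from -2.17 to 3.18 for SNORD22 and from -0.79 to 0.35 for SNORD24/SNORD79. They ranged from -4.54 to 2.96 for SNORA73 MSTRG.46108, from -4.02 to 2.88 for MSTRG.46106, from -1.79 to 2.95 for MSTRG.46109, from -3.16 to 3.405 for SNORA74 and from -0.74 to 3.37 for SNORA63 MSTRG.3468. Each such fit sets 1 library of an age against 2 of the other, so the number no longer balances between ages.

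Counts of snoRNA loci moved with the threshold. In number 1 the 6 higher loci became 10 with a pseudocount of 0.1, 3 with a minimum mean of 5 FPKM, 11 at 1.5-fold and 1 at 4-fold, and the 10 lower loci became 17, 5, 18 and 1. In number 2 the 11 higher loci became 2 with a minimum mean of 5 FPKM and 5 at 4-fold, and the 1 lower locus became 6 without a filter, 0 with a minimum of 5 FPKM, 3 at 1.5-fold and 0 at 4-fold. The C/D box sum ratio in number 1 was 0.600 without its highest locus. Without a filter the number 2 medians of both classes were 0.00, and with a pseudocount of 0.1 the H/ACA box median was 1.99. A minimum of 5 FPKM left no H/ACA box locus in number 2, so that setting has no value there. The ratio without both U3 loci was added after seeing the data. The cause of these changes was not tested.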

Other observations

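Some loci carry a snoRNA or Cajal body RNA name with a gene nomenclature description in place of an RFAM one and so lie outside the counts above, 15 in all. The highest was SCARNA2, a small Cajal body RNA that guides methylation of a spliceosomal RNA, with 141 FPKM in old 1 against 83.4 FPKM in young 1, and 2.99 FPKM in old 2 against 6.67 FPKM in young 2. The old library was 1.69-fold higher in number 1, and in number 2 it was lower. SNORD100 had 23.1 FPKM in old 1 against 18.9 FPKM in young 1, and 6.05 FPKM in old 2 against 5.85 FPKM in young 2. A further 6 RFAM loci join a snoRNA name to a protein-coding gene and were not counted, among them one that joins RPL17 and SNORD58 with 569 FPKM in old 1 against 355 FPKM in young 1, and 956 FPKM in old 2 against 1066 FPKM in young 2. SNORD100 and the joined locus were chosen after their values were seen.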
